A study of Homo sapiens with 16 samples.

Results

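The regions described here are stretches of the genome that carried a listed H3K27ac peak with each of 2 hairpins against *MBD3*, and none in untransduced A2780 cells. Autosomal peaks of the A2780, shMBD3.26 and shMBD3.232 lists were merged wherever they shared at least 1 bp, which gave 34047 merged regions. Of these, 671 met the rule, or 1.97% (95% Wilson interval 1.83 to 2.12). They are called new regions below, and because the rule itself uses the 3 H3K27ac lists, the members were chosen by presence in both hairpin lists and absence from the A2780 list, which are no results here.

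The study profiled histone acetylation in epithelial ovarian cancer cells that are sensitive or resistant to cisplatin (cPt) and in cells with suppressed MBD3. H3K27ac was mapped by ChIP-seq in 6 conditions and H3K9ac in 2, with 1 library per condition. A2780 cells come from an ovarian endometrioid adenocarcinoma and respond to cPt, and A2780cis is their resistant derivative, kept in cPt. CAOV4 cells come from a high-grade serous carcinoma. CAOV4cis cells were made from them by prolonged treatment with increasing cPt and were likewise kept in cPt.

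The cells with shMBD3.26 or shMBD3.232 were A2780 cells made competent for Tet-on expression, transduced with the doxycycline-inducible LT3GEN vector, selected with G418 and sorted for GFP, and they were profiled after 1 week of knockdown. The A2780 list used for the rule comes from untransduced cells that were not treated. Differences between the hairpin lists and this list cannot be told apart from those of transduction, selection, doxycycline and sorting. All libraries carried 5% *D. melanogaster* mononucleosomes as a spike-in. Cells with the control shRNA and the 8 input libraries were not analysed here, and no file used here measures the level of MBD3.

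Acetylation of lysine 27 on histone H3 marks active enhancers and promoters, and acetylation of lysine 9 marks active promoters and many active enhancers. Histone acetyltransferases write both marks and deacetylases remove them. MBD3 is a core subunit of the NuRD complex, which joins a nucleosome remodeler with histone deacetylases and is known to act at enhancers and promoters of active genes.

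The guides of both hairpins are shown because they are the agents that define the new regions, with the seed (bases 2 to 8) in capitals. They are printed as the study lists them, and their strand relative to the *MBD3* transcript was not checked here.
shMBD3.26: aACAAGGTcaagagcgacccgc
shMBD3.232: tTGCTCATcagcatcttgcccg
Both guides are 22 bases long, and their seeds had the same base at 1 of 7 positions. The new regions are therefore those found with 2 guides of different seeds in the same parental line.

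The lists give the position and width of each peak but no strength. On the autosomes they held 27932 H3K27ac peaks in A2780, 23270 with shMBD3.26 and 18936 with shMBD3.232, which covered 96.7, 76.5 and 78.9 Mb. The other 5 lists held 15058 to 24660 peaks. No list had a peak on chromosomes 20 to 22, so the 671 regions come from 19 autosomes, and positions follow GRCh37/hg19 as named in the submitters' processing notes. On chromosomes 1 to 12 the last peaks fall short of the human chromosome end, and what lies beyond them is not covered here. On these chromosomes the lists end near the length of the mouse chromosome of the same number, and the mouse has no autosome beyond 19. The regular grid and gaps of the boundaries are not what MACS2 by itself gives, so the listed positions and widths may not be those of the named peak caller. How the lists came to this form was not tested. Genes, exons and start sites at the listed positions were not analysed here. Read depth is unknown for these lists, and with 1 library per condition no p-value was computed for any comparison. The intervals given (95%, Wilson) reflect counting error alone.

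The shMBD3.26 list stood apart from all others on the short arm of chromosome 6, in a stretch that carries the major histocompatibility complex (chr6:28908401-33256800). There it held 139 peaks that covered 10.9% of the stretch, while shMBD3.232 held 19 peaks on 0.695% and A2780 held 12 on 0.414%. The remaining lists held 2 to 21 peaks there. Of the 671 new regions, 8 lay in this stretch, among them the widest of all (chr6:32143001-32166000), which is 23000 bp wide but had only 800 bp under a shMBD3.232 peak. Without the stretch, which was set apart after the data were seen, 663 new regions remained, and the share of new regions with a peak in each of the other lists stayed within its interval over all 671. Leaving out 8 of 671 could move these shares only slightly, so this was bound to follow. New regions over 4 kb were not recounted without the stretch.

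The median width of new regions was 2000 bp (quartiles 1200 and 3200, range 200 to 23000). Regions of A2780 and 1 hairpin were of like width, with medians of 2200 bp (shMBD3.26) and 2400 bp (shMBD3.232). The 12865 regions of all 3 lists were wider, with a median of 5000 bp, and regions of a single list were narrower, with medians of 400 bp for shMBD3.26 and 800 bp for shMBD3.232 and for A2780. Up to 1 kb were 137 of them (20.4%), 223 were over 1 to 2 kb (33.2%), 205 were over 2 to 4 kb (30.6%) and 106 were over 4 kb (15.8%). Most were simple: 642 of 671 consisted of 1 peak of each hairpin.

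The peaks of the hairpins did not cover the same bases. Within a new region the shMBD3.26 peaks covered a median of 1200 bp and the shMBD3.232 peaks 1400 bp, and the stretch under both had a median of 800 bp (quartiles 400 and 1400). That stretch made up a median of 44.4% of a new region, against 61.5% in regions of all 3 lists. The latter are wider, and the 2 values were not compared at like width. In 99 new regions (14.8%) the shared stretch was no more than 200 bp, the grid step on which all boundaries of the lists lie. In 81 (12.1%) it was over 2 kb. The shMBD3.232 peak was the wider in 325 new regions and the shMBD3.26 peak in 274, and the share of 48.4% for shMBD3.232 lay near the 50.8% seen in regions of all 3 lists.

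New regions sat close to H3K27ac that A2780 cells already carried. The distance to the nearest A2780 peak had a median of 6400 bp (quartiles 2300 and 21200), and 299 new regions (44.6%) lay within 5 kb of one, 593 (88.4%) within 50 kb and 631 (94.0%) within 100 kb. Regions with a peak of shMBD3.26 alone lay at a median of 8600 bp and those of shMBD3.232 alone at 4500 bp, so a short distance was not particular to the regions shared by both hairpins. Among the new regions within 5 kb, the nearest A2780 peak lay in 150 (50.2%) in a region also marked with both hairpins, in 100 (33.4%) in a region of A2780 alone and in 49 (16.4%) in a region shared with 1 hairpin. Over all A2780 peaks, 52.8% lay in regions of all 3 lists and 33.4% in regions of A2780 alone, close to the shares of these nearest peaks. For the 372 new regions farther away, the nearest A2780 peak lay in a region of all 3 lists in 213 (57.3%) and of A2780 alone in 100 (26.9%, interval 22.6 to 31.6).

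At the limit of the rule, 20 new regions had an A2780 peak 200 bp away or touching, with a median width of 2300 bp. Just outside it lay 70 regions with all 3 lists in which A2780 shared no more than 200 bp with the hairpin peaks, with a median width of 1400 bp. An example inside is chr1:25076601-25080800, where both hairpins shared 2400 bp and an A2780 peak lay 200 bp away. An example outside is chr2:50076601-50092400, where the hairpins shared 5000 bp.

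New regions were spread over the genome. They made up from 1.35% of the merged regions of chromosome 13 (11 of 812) to 2.93% of those of chromosome 2 (60 of 2048; interval 2.28 to 3.75), followed by 2.89% on chromosome 8 (35 of 1213; 2.08 to 3.99). Only on these last 2 chromosomes did the interval lie above the 1.97% of all merged regions. With gaps of up to 12500 bp between neighbors, 612 new regions stood alone and 59 fell into 29 groups.

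The state of the new regions in the 5 other lists does not enter the rule, although A2780cis derives from A2780 and A2780 H3K9ac comes from the same cells. A2780cis cells had an H3K27ac peak in 266 new regions (39.6%, interval 36.0 to 43.4), compared with 48.3% of all merged regions. CAOV4 had one in 147 (21.9%, 18.9 to 25.2, against 32.8%) and CAOV4cis in 153 (22.8%, 19.8 to 26.1, against 33.9%). H3K9ac peaks were present in 112 in A2780 (16.7%, 14.1 to 19.7, against 37.6%) and in 87 in A2780cis (13.0%, 10.6 to 15.7, against 32.6%). None of the 5 lists had a peak in 253 new regions (37.7%, 34.1 to 41.4), close to the 35.4% of all merged regions. These shares depend on which peaks are kept. With only peaks over 2 kb in the A2780 and both hairpin lists, 425 regions met the rule. Such regions can hold a narrower A2780 peak that was left out. Of the 425, 61.2% had H3K27ac in A2780cis, 39.1% in CAOV4 and 39.5% in CAOV4cis. H3K9ac marked 44.0% in A2780 and 38.8% in A2780cis, and 24.5% had no other peak. With the wider 50% of each hairpin list and all A2780 peaks, 71 regions met the rule. Of these, 21.1% had H3K27ac in A2780cis and 57.7% no other peak.

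Wide regions meet more peaks of any list, and the merged regions include the broad regions of all 3 lists, so classes of like width make a closer comparison. Regions with a peak in A2780 and 1 hairpin were also made from peaks of 2 lists. Of these, 48.0% (with shMBD3.26) and 46.6% (with shMBD3.232) had an A2780cis peak, and after weighting to the widths of the new regions these shares were 48.1% and 46.0%, against 39.6% in the new regions. For CAOV4 the weighted shares were 20.7% and 22.9%, and for CAOV4cis 23.2% and 26.5%. These lay within the intervals of the new regions, except the 26.5%, which lay just above. Regions of A2780 and 1 hairpin were chosen to have an A2780 peak, and A2780cis derives from A2780. A lower A2780cis share in new regions than in these classes, here and below, is thus not independent of the rule.

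The clearest gap to these classes was in A2780 H3K9ac. It marked 16.7% of the new regions, against 31.5% and 26.9% of regions of A2780 and 1 hairpin at the same widths. The new regions lack an H3K27ac peak in A2780 by choice, and this list comes from the same cells, so a lower share there is not independent of the rule. In A2780cis, H3K9ac marked 13.0% of the new regions, against 20.9% and 16.9%, and the limit given above for A2780cis holds here too.

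Compared with regions of 1 hairpin alone, the new regions were marked more often by A2780cis H3K27ac and by H3K9ac. New regions had to be listed with both hairpins, and these regions had to be missing with the other hairpin. A higher share in the new regions is therefore not independent of the rule. At the same widths, A2780cis H3K27ac was present in 22.0% of shMBD3.26 regions and 24.1% of shMBD3.232 regions. A2780 H3K9ac was present in 7.32% and 12.1%. For CAOV4 the shares were 10.9% and 18.8% and for CAOV4cis 13.9% and 20.2%, so that regions of shMBD3.232 alone came close to the new regions in these lines. Without regard to width, 66.6% of the shMBD3.26 regions and 57.2% of the shMBD3.232 regions had no peak in the 5 lists, against 37.7% of the new regions.

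**Figure D1:**
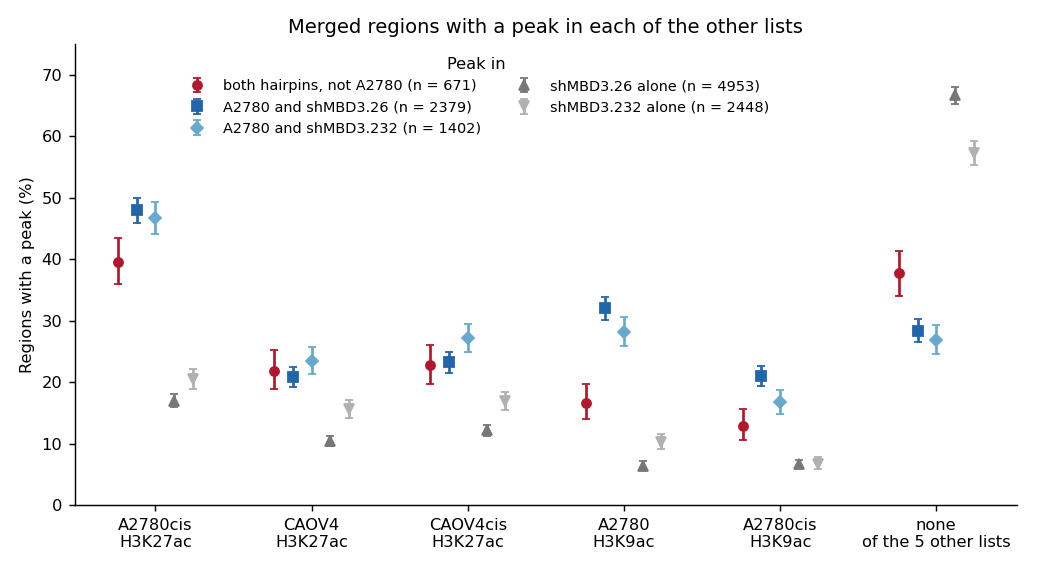
Share of merged regions (y axis, %) with a peak in each of the 5 other lists or in none of them (x axis), for new regions (red) and 4 other classes of merged regions; points are shares over regions of all widths and bars 95% Wilson intervals. New regions lie above regions of 1 hairpin alone in each list, and below regions of A2780 and 1 hairpin in A2780cis H3K27ac (39.6% against 48.0% and 46.6%) and in both H3K9ac lists. The classes were chosen by their peaks in A2780 and the hairpin lists, so these differences are not independent of the rule.

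The plot of shares by class shows the same order for A2780cis H3K27ac and for H3K9ac in both lines: regions of A2780 and 1 hairpin were highest, new regions lay between, and regions of 1 hairpin alone were lowest. For CAOV4 and CAOV4cis the intervals of new regions and of regions of A2780 and 1 hairpin overlapped, and so did those for A2780cis H3K9ac in new regions and in regions of A2780 and shMBD3.232.

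The lists did not mark the same new regions. Among the 266 new regions with H3K27ac in A2780cis, 69 (25.9%, interval 21.0 to 31.5) also had H3K9ac in A2780cis, against 18 of the 405 others (4.44%, 2.83 to 6.92). H3K9ac of A2780 was as frequent with as without an A2780cis H3K27ac peak, at 43 of 266 (16.2%) and 69 of 405 (17.0%). CAOV4 or CAOV4cis had a peak in 104 of the 266 (39.1%, 33.4 to 45.1) and in 102 of the 405 (25.2%, 21.2 to 29.6). Such joint shares were not counted in other merged regions, so none is known to be particular to the new regions.

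CAOV4 and CAOV4cis both had a peak in 94 new regions, CAOV4 alone in 53 and CAOV4cis alone in 59. A total of 46 (6.86%) carried H3K27ac in A2780cis, CAOV4 and CAOV4cis, and 3 had a peak in all 5 lists. The most frequent single pattern after no other peak was H3K27ac in A2780cis only, in 107 new regions (15.9%). Next came H3K9ac in A2780 only in 40 and H3K27ac in both CAOV4 lines only in 36. H3K9ac lay in both A2780 lines in 25 new regions, in A2780 only in 87 and in A2780cis only in 62. The patterns were not counted over all merged regions, so whether any is more frequent in new regions is not known. Peaks of A2780cis H3K27ac reached the longest stretch that the hairpins shared in 253 of 266 new regions. Those of A2780 H3K9ac did so in 87 of 112. An overlap of any length was counted, so the part of a peak on shared bases is not given.

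Width separated the new regions further. Up to 1 kb, 70 of 137 (51.1%) had H3K27ac in A2780cis. The share was 39.9% over 1 to 2 kb and 38.5% over 2 to 4 kb, and over 4 kb it was 26.4% (28 of 106; interval 19.0 to 35.5). In regions of A2780 and shMBD3.26 it went from 51.6% to 45.2% (170 of 376; 40.3 to 50.3) over the same bins, and in regions of A2780 and shMBD3.232 from 45.2% to 53.9% (145 of 269; 47.9 to 59.8).

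Over 4 kb, CAOV4cis had a peak in 10 of 106 new regions (9.43%, 5.21 to 16.5), compared with 22.6% and 34.9% of equally wide regions of A2780 and 1 hairpin. The parental CAOV4 line did not show this gap to both classes: it had a peak in 20 of the 106 (18.9%, 12.6 to 27.4), compared with 20.7% and 30.1%. H3K9ac of A2780 was present in 18.9% (12.6 to 27.4) of them, compared with 48.1% and 37.2%. In regions of A2780 and 1 hairpin its share was higher in each wider bin, and in new regions it stayed between 11.7% and 19.7%.

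**Figure D2:**
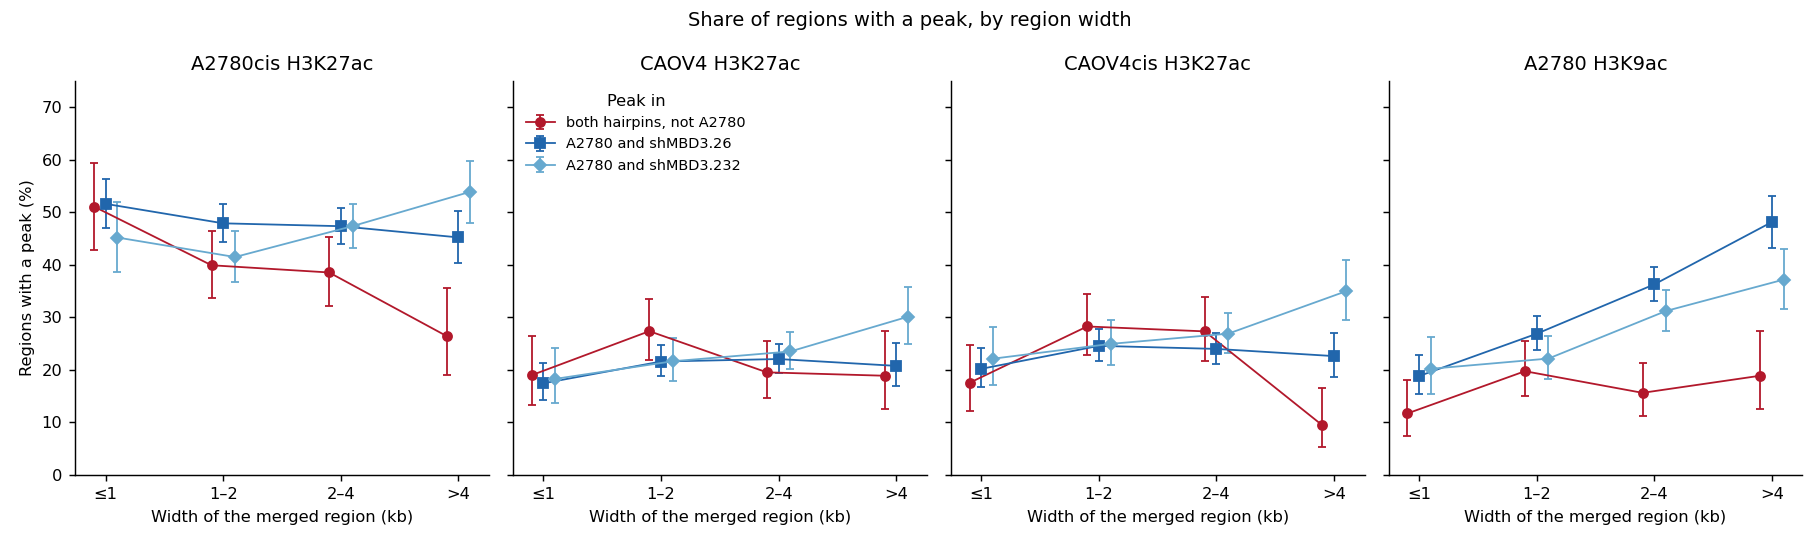
Share of regions (y axis, %) with a peak in A2780cis H3K27ac, CAOV4 H3K27ac, CAOV4cis H3K27ac and A2780 H3K9ac by width of the merged region (x axis, kb), for new regions (red) and regions of A2780 and 1 hairpin (blue); bars are 95% Wilson intervals. In the narrowest bin the intervals of the classes overlap for each list, while over 4 kb new regions lie below both other classes without overlap in A2780cis, CAOV4cis and A2780 H3K9ac (26.4%, 9.43% and 18.9%) but overlap them in CAOV4.

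The length covered with both hairpins gave a similar order at its long end. Where it was over 2 kb, 27.2% of 81 new regions had H3K27ac in A2780cis and 51.9% had no other peak. Where it was over 200 and up to 1000 bp, 45.3% of 364 had H3K27ac in A2780cis and 32.7% no other peak. New regions that shared a single grid step of 200 bp stood nearer to the long ones, with 31.3% and 47.5% of 99. None of the 20 new regions with the longest shared stretch had H3K27ac in A2780cis (0 of 20), and 15 of these 20 had no peak in any of the 5 lists. The number of 20 was chosen after the values were seen.

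**Figure D3:**
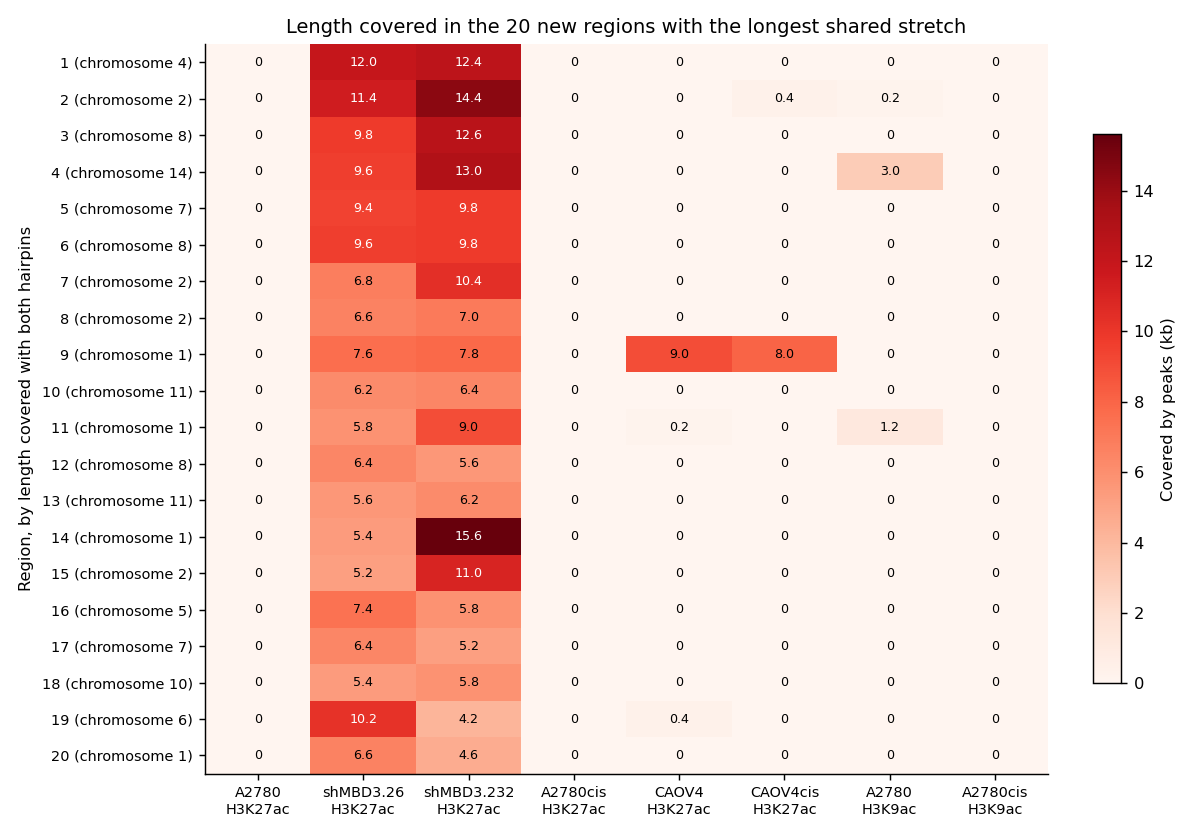
Length covered by listed peaks (kb, printed in each cell and as color) in the 20 new regions with the longest stretch under both hairpins (rows, longest at the top, with the chromosome) in each of the 8 lists (columns). The A2780 column is 0 by the rule; the A2780cis H3K27ac and H3K9ac columns are 0 in all 20 rows, and 5 rows have a peak in CAOV4, CAOV4cis or A2780 H3K9ac.

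The longest shared stretch lay at chr4:90431201-90444400. It was covered over 12000 bp with shMBD3.26, 12400 bp with shMBD3.232 and 11200 bp with both, and no other list had a peak in it. Within 100 kb on each side of its centre, the region itself included, A2780 H3K27ac covered 51.2 kb, shMBD3.26 67.6 kb and shMBD3.232 77.4 kb. H3K9ac of A2780 covered 15.6 kb of the same window, while A2780cis had no peak of either mark in it and CAOV4 and CAOV4cis had no H3K27ac peak. The new region thus lay in a domain that A2780 cells already carried and that was empty in the other 3 lines.

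A further pair had this layout. At chr14:26124801-26138400, where 9000 bp were shared, H3K9ac of A2780 covered 3000 bp of the region itself. The window around it held 53.6 kb of A2780 H3K27ac, 68.8 kb with shMBD3.26, 92.2 kb with shMBD3.232, 30.2 kb of A2780 H3K9ac and no peak of A2780cis, CAOV4 or CAOV4cis. At chr7:146381401-146392600 the shared stretch was 8000 bp, and the window held 71.2 kb in A2780, 88.2 kb with shMBD3.26 and 105 kb with shMBD3.232, again with no peak in the other 3 lines.

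Over the 10 new regions with the longest shared stretch, A2780cis H3K27ac had no peak in the window in 7 of 10. A2780cis H3K9ac had none in 7 of 10 and CAOV4 H3K27ac none in 6 of 10. A2780 H3K9ac had at least 1 peak in the window in 8 of 10. Windows of this size were not counted around other merged regions, so these counts describe the 10 regions only.

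The rest of these 10 differed from that layout. The hairpins shared 6600 bp at chr2:67386401-67393400 and 6200 bp at chr11:36809601-36816000, which lay 46400 and 38800 bp from the nearest A2780 peak. Here the windows held only 9.2 and 12 kb of H3K27ac in A2780, and none in A2780cis, CAOV4 or CAOV4cis. At chr1:108224801-108233800 the hairpins shared 6400 bp, and CAOV4 covered 9000 bp of the region and CAOV4cis 8000 bp, while A2780cis had no peak in the window. At chr2:178001801-178017200, with 10400 bp shared, the window held 30.7 kb of H3K27ac in A2780cis, although none of it fell in the new region. A pair of new regions on chromosome 8, chr8:109290801-109303000 and chr8:109410001-109422600, shared 7200 and 9800 bp between the hairpins and had no other peak in them. A2780cis H3K27ac covered 15.2 and 3.6 kb of their windows. At chr2:177819201-177829600, where 6800 bp were shared, the window held 4.8 kb of H3K27ac in A2780, 39.8 kb with shMBD3.26 and 54.8 kb with shMBD3.232, and A2780cis had none.

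**Figure D4:**
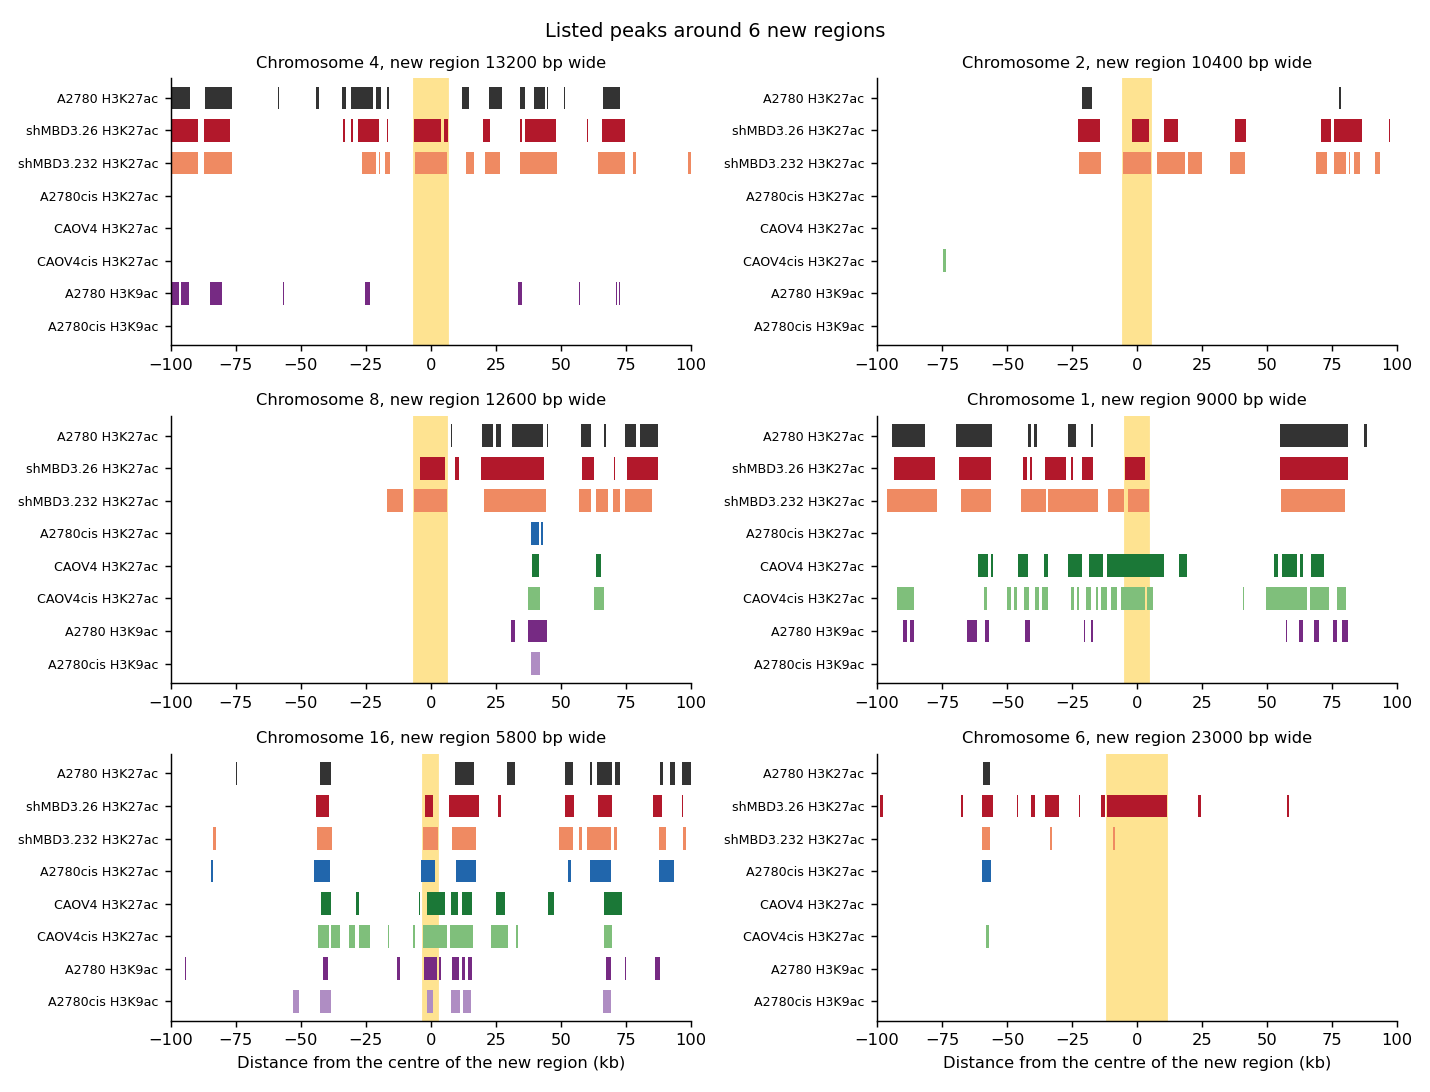
Listed peaks (bars) of the 8 lists (rows) within 100 kb on either side of the centre of 6 new regions (yellow), with distance from the centre in kb on the x axis. On chromosome 4 the new region of 13200 bp lies between peaks that A2780 also has while A2780cis, CAOV4 and CAOV4cis are empty; on chromosome 16 the region of 5800 bp has a peak in each of the 5 other lists; on chromosome 6 the region of 23000 bp is nearly all shMBD3.26.

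In the map of listed peaks the nearest A2780 peak was 1600 bp away for the chromosome 8 region, 5600 bp for the chromosome 4 region and 45200 bp for the chromosome 6 region, so that the regions drawn differed in how near A2780 peaks lay.

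Covered length around the new regions was counted within 25 kb on each side with the new region left out. Around the 106 new regions over 4 kb, A2780 covered a mean of 7262 bp, shMBD3.26 8743 bp (120% of A2780) and shMBD3.232 10136 bp (140%). Over all autosomes the hairpin lists covered 79.2% and 81.6% of the A2780 length. These 3 lists are the ones the rule used, so the ratios are a description and lean toward the hairpins by the choice of regions. Regions over 4 kb of A2780 and 1 hairpin were chosen for A2780 and that hairpin, and against the other hairpin. Around those of A2780 and shMBD3.26, shMBD3.26 covered 62.4% of the A2780 length and shMBD3.232 48.1%. Around those of A2780 and shMBD3.232 these values were 68.6% and 90.1%. A2780cis H3K27ac covered 4066 bp of the flanks of wide new regions, or 56.0% of A2780, against 67.7% and 83.4% around these classes and 94.6% over all autosomes.

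Around the 137 new regions of up to 1 kb this was not seen. A2780 covered a mean of 4531 bp, shMBD3.26 3679 bp (81.2%), shMBD3.232 4175 bp (92.1%) and A2780cis 4861 bp (107%). The ratio for shMBD3.26 was near the 79.2% over all autosomes. Those for shMBD3.232 and A2780cis were above the 81.6% and 94.6% found there. Over all 671, shMBD3.26 covered 86.2% and shMBD3.232 100.8% of the A2780 length in the flanks.

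The A2780cis list had no H3K27ac peak within 25 kb, the region included, for 47 of the 106 widest new regions (44.3%, interval 35.2 to 53.8) and for 20 of the 137 narrowest (14.6%, 9.65 to 21.5). Among other regions over 4 kb this held for 116 of 376 of A2780 and shMBD3.26 (30.9%, 26.4 to 35.7), for 28 of 269 of A2780 and shMBD3.232 (10.4%, 7.30 to 14.6) and for 617 of 7912 of all 3 lists (7.80%). For A2780 itself the order was turned round: the list had no peak within 25 kb of 21 of the 106 widest new regions and of 46 of the 137 narrowest.

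**Figure D5:**
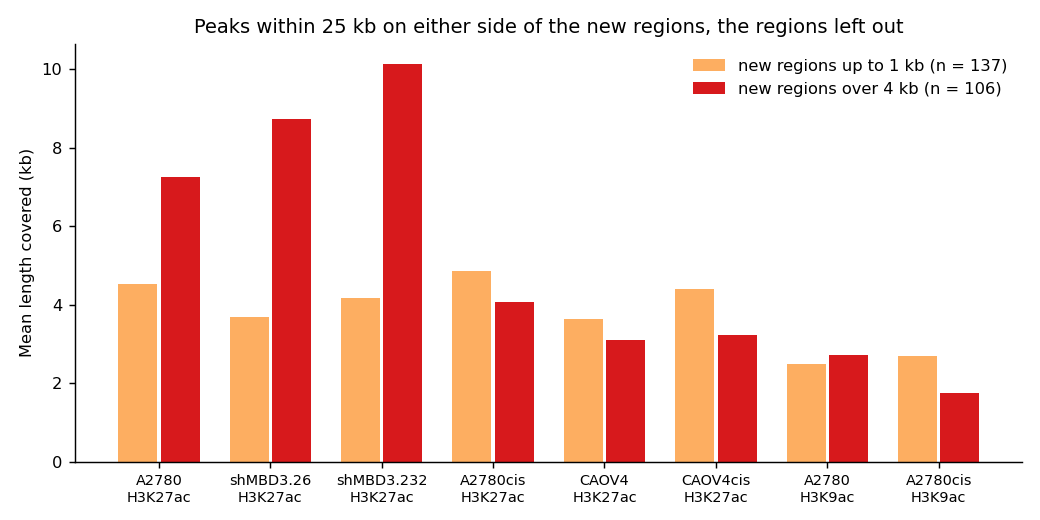
Mean length covered by listed peaks (y axis, kb) within 25 kb on each side of new regions of up to 1 kb (orange, n = 137) and over 4 kb (red, n = 106), the regions themselves left out, for each of the 8 lists (x axis). Bars are means over regions with no error bar, since each list is 1 library; around wide new regions the hairpin lists cover most (8.7 and 10.1 kb) and A2780cis less than A2780 (4.1 against 7.3 kb).

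None of the new regions with H3K27ac in all 3 other lines was among the 20 with the longest shared stretch. Their own longest lay at chr16:11874201-11880000, with 3200 bp shared, 4400 bp covered in A2780cis, 4400 bp in CAOV4 and 5800 bp in CAOV4cis. H3K9ac covered 4800 bp of it in A2780 and 2400 bp in A2780cis, so that A2780 cells had H3K9ac but no listed H3K27ac there. Next came chr16:89236801-89242200, with 2800 bp shared and 1800 bp covered in A2780cis, and chr17:79016401-79019200, with 2200 bp shared and all 2800 bp covered in A2780cis, CAOV4 and CAOV4cis. The other 2 of the 5 longest were chr19:17227201-17229800 and chr16:1412201-1415400, with 1800 and 1600 bp shared. A2780 peaks lay 1200 to 8000 bp from these 5 regions.

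Where A2780 had H3K9ac in a long new region, it usually covered a small part. Beside the regions on chromosomes 2 and 14 above, H3K9ac of A2780 covered 1200 of 9000 bp at chr1:192814801-192823800, 800 of 6600 bp at chr7:104993401-105000000 and 1000 of 4400 bp at chr10:65363601-65368000. None of these 3 had H3K27ac in A2780cis. Over all 112 new regions with A2780 H3K9ac, it covered at least 50% of the width in 50.

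The largest group of neighboring new regions was at chr16:90182401-90198400 with 3 regions. In these regions shMBD3.26 covered 3400 bp, shMBD3.232 6200 bp, A2780cis 2000 bp and CAOV4cis 1600 bp, and CAOV4 had no peak in them. The next groups by shared stretch held 2 regions each. At chr2:177819201-177843000 shMBD3.26 covered 12000 bp and shMBD3.232 21400 bp, and at chr1:169944601-169973400 they covered 9000 and 25800 bp. In both of these groups the other 5 lists were at 0 within the new regions.

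The new region farthest from any A2780 peak, named after its values were seen, was chr8:127835801-127839600, at 898600 bp. There shMBD3.26 covered 3800 bp and shMBD3.232 800 bp, and A2780cis covered 3800 bp with H3K27ac and 3400 bp with H3K9ac. Distance went with the state of new regions only to a small degree: H3K27ac of A2780cis was present in 35.5% of those within 5 kb of an A2780 peak (interval 30.2 to 41.0) and in 43.0% of those farther away (38.1 to 48.1), and H3K9ac of A2780 in 19.4% (15.3 to 24.3) and 14.5% (11.3 to 18.5). Between 37.5% and 37.9% had no other peak in either set.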

How the data were processed

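ChIP-seq peak lists of 8 libraries were used, 1 per condition. According to the study's methods, the authors used Bowtie2 for alignment, quantile normalization and MACS2 for peak calling. They deposited 1 list for each sample, and the methods do not mention pooling. The submitters' processing notes name GRCh37 and hg19. The deposited lists give the start and end of each peak, and the score column that the authors deposited holds nothing but 0, so it was left out. Autosomal boundaries fall on multiples of 200 bp and neighbors in a list never lie closer than 1000 bp, which sets the widths and gaps reported and is not the usual layout of MACS2 output. The depth behind a peak is unknown.

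Overlapping peaks (1 bp or more) were joined, and the lists present set the class of each merged region. Shares have 95% Wilson intervals. Shares of other classes were also weighted to the widths of the new regions over 4 bins. Named are the 10 regions with the longest stretch under both hairpins, the 5 longest of those with H3K27ac in A2780cis, CAOV4 and CAOV4cis, of those with A2780 H3K9ac and of those in no other list, and the 3 largest groups with gaps of up to 12500 bp. These choices, and the gene and marker lists set with them, were made with earlier results of these data known. The gene and marker lists and the distance to start sites would need gene coordinates on GRCh37 and were not analysed here, and no region sequence is given for the same reason. Guide sequences come from the study's list of hairpins. Python 3.11.15 was used with matplotlib 3.10.9, numpy 2.4.6 and pandas 2.3.3, and the merging and classing were tested on simulated data. Alternatives were an overlap of 50%, no A2780 peak within 5 kb, only peaks over 2 kb, only the wider 50% of the hairpin lists, equally long lists of the widest peaks, 1 hairpin alone, the stretch under both hairpins, sex chromosomes and regions without A2780 H3K9ac.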

Additional observations from a re-analysis of the deposited data

How the results depend on the processing

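Each condition is 1 library with no read counts, so the spread between cultures is unknown and none of the shares has a replicate check. No paired analysis was possible because each condition has 1 library and no result comes from a test. The distance to start sites was not run. Values below are in the order number of regions, then percent with H3K27ac in A2780cis, CAOV4 and CAOV4cis, with H3K9ac in A2780 and A2780cis, and with no other peak, then median width and median distance to an A2780 peak in bp. With peaks over 2 kb only, they were 425, 61.2, 39.1, 39.5, 44.0, 38.8, 24.5, 4000 and 21000. The A2780 list was cut in the same way, so this distance is to an A2780 peak over 2 kb. With the wider 50% of each hairpin list they were 71, 21.1, 11.3, 12.7, 19.7, 9.86, 57.7 and 5400, with little change in distance. With each list shortened to an equal number of its widest peaks they were 1255, 58.9, 30.4, 30.8, 24.3, 27.8 and 23.5, with little change in width, and a distance of 16600. Here too the A2780 list was shortened, the distance is to the A2780 peaks kept, and regions can hold a narrower A2780 peak. With shMBD3.26 alone against A2780 they were 5912, 20.5, 11.9, 13.6, 7.61, 7.51, 62.5, 600 and 7600. With shMBD3.232 alone they were 3240, 24.7, 16.8, 17.8, 11.2, 8.02, 53.4, 800 and 4600. Over the stretch under both hairpins only, CAOV4cis was 19.4%, A2780 H3K9ac 13.4% and the width 800. With no A2780 peak within 5 kb, 372 regions remained at a distance of 18700, and without regions marked by A2780 H3K9ac 45.3% had no other peak. Each of these keeps fewer or other peaks by construction. The 57 other values stayed close to those reported, among them all of those with an overlap of 50% of the shorter peak and with sex chromosomes and, for 2 alternatives chosen after seeing the data, all of those without the chromosome 6 stretch and with more than 200 bp shared by the hairpins.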
